A study of Homo sapiens with 12 samples.

Results

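The genes described here were PLAT, PLAU, PLAUR, F3, TFPI, TFPI2, THBD and PROCR, 8 genes through which endothelial cells steer clotting and the breakdown of clots. They were taken by symbol from a table of 51141 gene symbols, and 7 of the 8 had enough reads to be tested. RNA sequencing was done on EA.hy926, a human hybrid line that arose from endothelium of the umbilical vein and the lung carcinoma line A549. The control group was untreated, the hypoxia group spent its last 8 h in 1% oxygen, the TEPA group received the copper chelator TEPA at 50 µM for 16 h before a last 8 h at normal oxygen, and the TEPA+hypoxia group received the same TEPA before 8 h in 1% oxygen. Each group had 3 libraries. The study asked how a lack of copper alters transcription driven by HIF-1, the oxygen-regulated factor. All libraries came from 1 line, a hybrid of an endothelial and a carcinoma cell, and the labels do not say whether the libraries of a group were separate cultures.

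Clots are dissolved by plasmin, which is cut from plasminogen by the tissue-type activator (PLAT) or by the urokinase-type activator (PLAU). Urokinase works at the cell surface on its receptor PLAUR. Clotting starts when tissue factor (F3) binds factor VII, a step stopped by TFPI, while TFPI2 is a related inhibitor of plasmin and other proteases. Resting endothelium also carries thrombomodulin (THBD), which turns thrombin into an activator of protein C, and the endothelial protein C receptor (PROCR), which presents protein C to that complex. Low oxygen is known to shift several of these genes in endothelial cells.

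Levels are given as CPM, counts scaled to a common library total after TMM scaling. Library totals ran from 13406858 to 24778944 counts. Hypoxia 2 and hypoxia 3 stood apart from the rest: they scored 137 and 114 on a first principal component holding 73.9% of the variance, against 11.5 for hypoxia 1 and -54.1 to -10.8 for the other 9 libraries. Their TMM factors were 0.772 and 0.838, against 1.03 to 1.08 elsewhere. Both libraries also leaned to genes of high GC content. Across genes, their log2 difference from the control mean had a rank correlation with GC content of 0.507 and 0.531. Control 3 reached 0.471 and hypoxia 1 reached 0.366, but each control is part of that mean. A rank correlation does not give the size of a lean. The summed level of the endothelial markers was 3869 to 4531 CPM in the other 10 libraries and 7304 and 6635 CPM in these 2, with 14 of 15 markers tested. Single markers went both ways there: of the 14, 4 lay above the range of the 10 libraries in both and 6 below it. ENG, at 826.7 to 1235 CPM in the 10, reached 3387 and 2773 CPM, and EGFL7 was also above. Among the defining ones CDH5 was at 578.4 to 772.1 CPM in the 10 and at 273.9 and 377.1 CPM in hypoxia 2 and 3, and PECAM1 at 493.5 to 674.3 CPM and at 430.4 and 433.4 CPM. TEK was at 32.65 to 81.96 CPM, against 2.275 and 3.65 CPM there. VWF averaged 8.02 CPM over all libraries, and CLDN5 was at 0. The epithelial markers, led by KRT7, KRT18 and KRT8, summed to 5521 to 7764 CPM in the 10 libraries but to 18240 and 15620 CPM in hypoxia 2 and 3, with 7 of 13 tested and CDH1 at 0. Fibroblast and mural markers (4 of 12 tested) summed to 84.3 to 108.7 CPM, and to 51.8 and 58.3 CPM there. Most of that sum was RGS5, at 72.27 to 96.12 CPM in the 10 and 34.43 and 40.51 CPM there. TAGLN went the other way, at 1.531 to 2.562 CPM and at 6.459 and 4.896 CPM. COL1A1 and ACTA2 did not lie beyond the range of the 10 in both. Leukocyte markers (3 of 12 tested, PTPRC at 0) summed to 150.2 to 185.3 CPM, and to 205 and 191 CPM in hypoxia 2 and 3. Nearly all of that sum was CD68, at 145 to 178.9 CPM in the 10 and 200.3 and 184.9 CPM there. LYZ and LCP1 did not lie beyond the range of the 10 in both. The tested differences from the hypoxia group given for single genes are therefore followed by their value without these 2 libraries. Without them the hypoxia group is 1 library, whose spread is assumed to equal that of the other groups. The part of GC content and of these marker shifts in the results was not tested. In bulk RNA, fewer cells of a type and less RNA per cell cannot be told apart.

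The 8 genes spanned a wide range of levels. Per kilobase of the longest annotated transcript, PROCR led in control cells at 317 ± 26.6 CPM per kb (SD, n = 3). PLAUR at 82.5 ± 1.48 and PLAU at 79.8 ± 3.40 CPM per kb came next, and their ranges of mean ± SD overlapped. THBD followed at 56.7 ± 10.5, PLAT at 24.4 ± 1.15 and TFPI at 16.1 ± 1.09 CPM per kb. Before division by length TFPI was above PLAT in control, at 123.9 against 84.4 CPM. TFPI2 lay near 1 at 0.963 ± 0.207 and F3 last at 0.168 ± 0.134 CPM per kb. The order was the same in the other groups apart from PLAU and PLAUR. These changed places in TEPA and in TEPA+hypoxia, where their ranges of mean ± SD also overlapped. Under hypoxia the ranges of THBD at 36.3 ± 10.3 and PLAT at 21.2 ± 5.15 CPM per kb just overlapped as well.

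**Figure D1:**
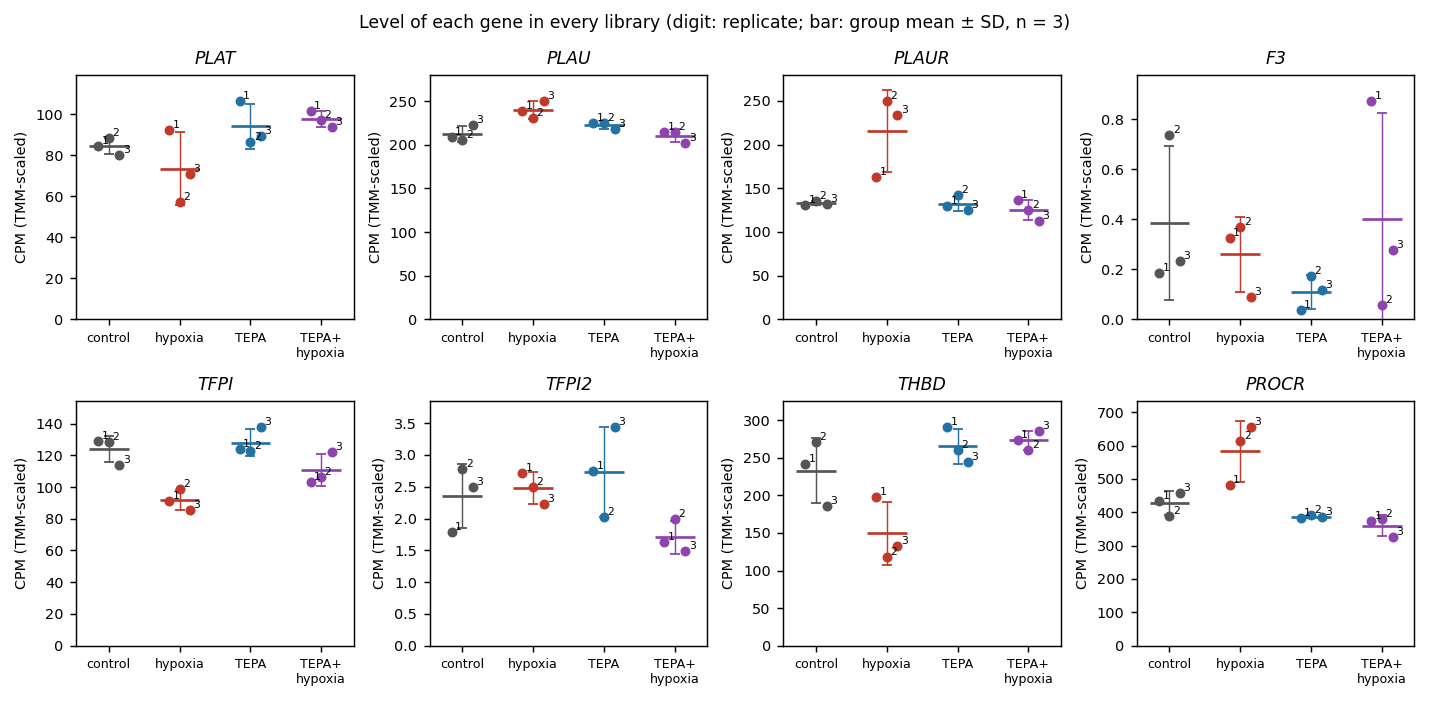
Level of each of the 8 genes in every library, in TMM-scaled CPM on linear axes from 0; points are libraries with their replicate number, and the bar and whiskers give the mean and SD of 3 libraries. Hypoxia 2 and 3 lie far above the other libraries for PLAUR and PROCR and below them for THBD, while for TFPI all 3 hypoxia libraries (85.7 to 98.7 CPM) lie below all 3 controls (114.2 to 129 CPM).

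Of the 7 tested genes, 4 passed the edgeR test at an adjusted p under 0.05 between hypoxia and control, against 57.2% of all tested genes. PLAUR and PROCR were higher (29.4% of all genes were called higher), and TFPI and THBD were lower (27.8%). Without hypoxia 2 and 3, 0 of 8 were called in edgeR (F3 had enough reads to enter that fit), with 2 at an unadjusted p under 0.05, and 0.513% of all genes were called. When only control and hypoxia libraries were fitted, 0 genes of the table passed and the smallest adjusted p was 0.0582. Between TEPA and control, 0 of 7 passed in edgeR and in DESeq2, with 0 at an unadjusted p under 0.05 in edgeR, and 0% of all genes were called by edgeR. The other comparisons follow with the genes.

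Among the genes of plasminogen activation, PLAUR was higher in hypoxia and PLAU and PLAT did not pass the test. PLAUR, which holds urokinase at the cell surface, was at 131.3, 135.5 and 131.5 CPM in control 1 to 3 and at 162.5, 250.1 and 234.3 CPM in hypoxia 1 to 3. It was at 130.1, 142.3 and 125.1 CPM in TEPA 1 to 3 and at 136.6, 125.7 and 112.9 CPM in TEPA+hypoxia 1 to 3. Every hypoxia library lay above every other library, with hypoxia 1 nearest to them at 122% of the control mean, against 188% and 176% for hypoxia 2 and 3. Hypoxia and control libraries did not overlap for 55.6% of all genes. The log2 fold change between hypoxia and control was 0.70 (SE 0.145, adjusted p = 0.00601, edgeR), and it was called in each of the 12 fits that left out 1 library. It was 0.29 without hypoxia 2 and 3 (adjusted p = 0.165), and once counts were corrected for GC content and for transcript length it was -0.0017 (adjusted p = 0.986). With GC content alone corrected it was 0.41 (adjusted p = 0.00648).

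After TEPA, PLAUR did not pass the test between low and normal oxygen. TEPA+hypoxia differed from TEPA by -0.08 in log2 (SE 0.144, adjusted p = 0.899) and the groups overlapped. The interaction, which is the hypoxia response under TEPA less that in its absence, was -0.78 (SE 0.204, adjusted p = 0.0236), among 2 of 7 genes called against 38.8% of all genes, both lower (21.5% of all genes). It was called in 7 of the 12 fits with 1 library left out and lost, at an adjusted p of up to 0.0663, without control 1, control 2, hypoxia 3, TEPA 2 or TEPA+hypoxia 3. Without hypoxia 2 and 3 it was -0.36 (adjusted p = 0.13), a fit in which 0 genes of the table were called. TEPA+hypoxia lay below hypoxia, at -0.78 in log2 (SE 0.145, adjusted p = 0.00217), and here the call stood without hypoxia 2 and 3, at -0.37 (adjusted p = 0.0464). It did not stand after the correction for GC content and length, at -0.02.

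The PLAUR gene runs from 43646095 to 43670547 on the minus strand of chromosome 19 (GRCh38). The 250 bases before its RefSeq start were searched on both strands for ACGTG and GCGTG (cores of the hypoxia response element bound by HIF), TGANTCA (the AP-1 element) and GGGCGG (the GC box). GCGTG and TGANTCA each matched once. Both matches are shown in capitals, each with 30 bases read 5′ to 3′ on the gene's strand, since the whole window lies within a first exon of PLAUR in GENCODE 29. The first stretch is chr19:43670338-43670367 and the second chr19:43670239-43670268, both in RefSeq's GRCh38.p14.
PLAUR AP-1 match: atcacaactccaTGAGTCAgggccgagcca
PLAUR GCGTG match, read as CACGC: agggggaggcgccCACGCatctggggctga
Of 35116 promoter windows of this length, 32.2% held GCGTG, 18.5% ACGTG, 6.57% TGANTCA and 42.6% GGGCGG. Such a match is a run of letters and was not tested as a binding site.

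PLAU, the urokinase-type activator, was at 208.5, 205.4 and 222.4 CPM in control 1 to 3 and at 238.5, 230.3 and 250.4 CPM in hypoxia 1 to 3. It was at 225.2, 225.4 and 217.5 CPM in TEPA 1 to 3 and at 214.3, 214.8 and 201.6 CPM in TEPA+hypoxia 1 to 3. The hypoxia libraries lay above all others, hypoxia 1 included, yet the difference from control was small, at 0.18 in log2 (SE 0.0786, adjusted p = 0.0722, edgeR). A lack of overlap of this kind was found for 55.6% of all genes in that comparison. DESeq2 called it, at 0.18, and leaving out hypoxia 2 and 3 gave 0.17 (adjusted p = 0.281). The difference between TEPA+hypoxia and hypoxia, -0.19 (SE 0.0786, adjusted p = 0.0543), was likewise just outside the threshold in edgeR and called in DESeq2 and with RLE scaling, and it was -0.17 (adjusted p = 0.193) when those libraries were left out. Corrected for GC content and length, both differences changed sign, to -0.07 and 0.10. An annotated gene on the other strand, C10orf55, overlaps PLAU, and it had 17 to 38 counts per library.

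PLAT, the tissue-type activator that endothelial cells release into blood, was at 84.6, 88.28 and 80.31 CPM in control 1 to 3 and at 92.38, 57.03 and 70.87 CPM in hypoxia 1 to 3. It was at 106.6, 86.43 and 89.46 CPM in TEPA 1 to 3 and at 101.7, 97.34 and 93.86 CPM in TEPA+hypoxia 1 to 3. The hypoxia libraries pointed in different directions, since hypoxia 1 lay above every control and hypoxia 2 and 3 below every one. The log2 fold change between hypoxia and control was -0.20 (SE 0.154, adjusted p = 0.276), and leaving out hypoxia 1 made it -0.43 (adjusted p = 0.0024), while leaving out hypoxia 2 and 3 made it 0.13 (adjusted p = 0.537). TEPA+hypoxia was above hypoxia by 0.41 (SE 0.154, adjusted p = 0.0362), a call lost in 6 of 12 fits with 1 library left out, with adjusted p up to 0.123: those without control 1, hypoxia 2, hypoxia 3 or any of the TEPA+hypoxia libraries. That difference was 0.09 without hypoxia 2 and 3 together (adjusted p = 0.643). TEPA+hypoxia also lay wholly above control, at 0.21 (SE 0.153, adjusted p = 0.725).

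Among tissue factor and its inhibitors, TFPI was lower in hypoxia and F3 was almost absent from the table. F3 had 4, 13 and 4 counts in control 1 to 3, 5, 5 and 1 in hypoxia 1 to 3, 1, 3 and 2 in TEPA 1 to 3, and 15, 1 and 5 in TEPA+hypoxia 1 to 3. These are at most 0.873 CPM, against a floor of 3 counts that lay between 0.118 and 0.267 CPM. The groups overlapped, F3 did not enter the fit of all 12 libraries, and a difference was not detectable at these counts. F3 entered the fit without hypoxia 2 and 3, where the filter is looser because the smallest group is 1 library. A low count in this table is not a sign of a silent gene, since HK1, CANX and TXNRD1, which most cells use, were listed with 0, 4 and 2 counts over all libraries.

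TFPI, which blocks the complex of tissue factor and factor VII, was at 129, 128.4 and 114.2 CPM in control 1 to 3 and at 90.96, 98.65 and 85.73 CPM in hypoxia 1 to 3. It was at 123.9, 122.5 and 137.8 CPM in TEPA 1 to 3 and at 103.3, 106.6 and 122.1 CPM in TEPA+hypoxia 1 to 3. All hypoxia libraries lay below all control libraries, with hypoxia 1 at 73.4%, hypoxia 2 at 79.6% and hypoxia 3 at 69.2% of the control mean. Such a lack of overlap, in either direction, was found for 55.6% of all genes. Of the 4 genes called, TFPI was the one for which hypoxia 1 lay between hypoxia 2 and hypoxia 3. The log2 fold change was -0.43 (SE 0.103, adjusted p = 0.00704, edgeR), called in each of the 12 fits with 1 library left out. The value without hypoxia 2 and 3 was -0.45 (SE 0.119, adjusted p = 0.0882).

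After TEPA, TFPI in low oxygen also lay wholly below TFPI at normal oxygen. The log2 fold change was -0.21 (SE 0.102, adjusted p = 0.698, edgeR), or -0.20 without hypoxia 2 and 3. In that comparison 0 of the 7 genes passed in edgeR and in DESeq2, 1 had an unadjusted p under 0.05 in edgeR and 2 in DESeq2, and 0.0969% of all genes were called. A lack of overlap was found for 30.5% of all genes there. The edgeR fit shares its estimate of the spread across all groups. Its common dispersion was 0.0339 with all 12 libraries and 0.0085 without hypoxia 2 and 3. With only the TEPA and TEPA+hypoxia libraries fitted, 0 members and 355 of all genes were called, against 14 of all genes with all 12 libraries. The interaction for TFPI was 0.22 (SE 0.145, adjusted p = 0.223), or 0.25 (adjusted p = 0.279) with hypoxia 2 and 3 left out. TEPA+hypoxia lay above hypoxia by 0.27 (SE 0.103, adjusted p = 0.0389), called in 5 of 12 fits with 1 library left out and lost, at adjusted p up to 0.149, without control 1 or 2, hypoxia 3, TEPA 1 or 2, or TEPA+hypoxia 2 or 3. With hypoxia 2 and 3 left out it was 0.29 (adjusted p = 0.105).

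The direction for TFPI depended on the correction for GC content and length. That correction uses the longest annotated transcript, which need not be the form expressed here. Its longest transcript has 7690 bases and 41.5% GC, against 1610 bases and 55.7% for PLAUR and 1348 bases and 52.4% for PROCR. After the correction TFPI was higher in hypoxia than in control by 0.48 (adjusted p = 0.0409), and lower in TEPA+hypoxia than in hypoxia, at -0.78 (adjusted p = 0.00434). With GC content alone corrected the first value was 0.11 (adjusted p = 0.494), and TFPI was still called lower in TEPA+hypoxia than in hypoxia. When the same correction was applied without hypoxia 2 and 3, TFPI was lower in low oxygen with TEPA, at -0.36 against TEPA (adjusted p = 0.00555), while hypoxia against control gave -0.10.

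The TFPI gene covers 187464230 to 187565760 on the minus strand of chromosome 2 (GRCh38), and it overlaps an annotated antisense gene. None of the 4 motifs was found in the 250 bases before its RefSeq start, which is shown for contrast with PLAUR and PROCR. The 193 bases printed, chr2:187554493-187554685 (GRCh38.p14, gene strand), are those outside the exons of TFPI in GENCODE 29. The window lies inside the span of the gene given above, so a start further upstream is also annotated. The bases before that start were not searched. With 38.4% GC over the 250 bases the window was the lowest in GC of the 7 windows used for 6 of the 8 genes. Windows of genes not called between hypoxia and control held matches too. F3 had 2 TGANTCA and 4 GGGCGG matches, and TFPI2 had 1 and 2. Of the 2 PLAU windows, the first had no match and the second had 1 GCGTG and 3 GGGCGG matches. A link between motifs and direction was not tested.
TFPI: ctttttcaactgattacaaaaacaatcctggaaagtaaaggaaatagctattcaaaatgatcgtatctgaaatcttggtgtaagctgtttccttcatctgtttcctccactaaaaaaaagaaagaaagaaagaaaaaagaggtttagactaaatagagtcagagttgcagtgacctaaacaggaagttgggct

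TFPI2, the inhibitor of plasmin and other proteases, had 25 to 70 counts per library. It was at 1.794, 2.778 and 2.49 CPM in control 1 to 3, at 2.715, 2.496 and 2.226 CPM in hypoxia 1 to 3, at 2.743, 2.022 and 3.438 CPM in TEPA 1 to 3, and at 1.629, 1.992 and 1.488 CPM in TEPA+hypoxia 1 to 3. The TEPA+hypoxia libraries lay below every TEPA and every hypoxia library. TFPI2 had the lowest p of the 7 genes between TEPA+hypoxia and TEPA. The log2 fold change was -0.68 (SE 0.247, unadjusted p = 0.0181, adjusted p = 0.514, edgeR), or -0.67 without hypoxia 2 and 3. Against hypoxia the value was -0.55 (SE 0.256, adjusted p = 0.0824), and the interaction was -0.77 (SE 0.35, adjusted p = 0.0944). After the correction for GC content and length these became -0.79 (adjusted p = 0.021) and -1.06 (adjusted p = 0.0452). Hypoxia and control differed by 0.09 (SE 0.248, adjusted p = 0.777). With hypoxia 2 and 3 left out, the value against control was 0.22 (adjusted p = 0.74), that of TEPA+hypoxia against hypoxia -0.66 (adjusted p = 0.209) and the interaction -0.88 (adjusted p = 0.2).

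The protein C receptors moved in opposite directions: THBD was lower in hypoxia and PROCR higher. THBD, thrombomodulin, was at 241.7, 271.3 and 186.3 CPM in control 1 to 3 and at 197.6, 117.6 and 132.8 CPM in hypoxia 1 to 3. It was at 291, 260.5 and 244 CPM in TEPA 1 to 3 and at 273.9, 260 and 285.5 CPM in TEPA+hypoxia 1 to 3. Hypoxia 1 lay within the control range, above control 3, and hypoxia 2 and 3 lay at 50.5% and 57.0% of the control mean. The log2 fold change between hypoxia and control was -0.64 (SE 0.186, adjusted p = 0.0141, edgeR). The call was lost without control 2 (-0.52, adjusted p = 0.0618), hypoxia 2 (-0.51, adjusted p = 0.0511) or hypoxia 3 (-0.57, adjusted p = 0.0574), and without both hypoxia 2 and 3 the value was -0.24 (adjusted p = 0.378).

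THBD kept its difference under the correction for GC content and length with a value of -0.62 (adjusted p = 0.0157). TEPA+hypoxia lay wholly above hypoxia for THBD, at 0.87 in log2 (SE 0.187, adjusted p = 0.00302), called in each fit with 1 library left out and, at 0.85 (adjusted p = 0.00321), after the correction. Without hypoxia 2 and 3 the value was 0.48 (adjusted p = 0.0578). THBD did not pass the test between TEPA+hypoxia and TEPA, at 0.04 (SE 0.185, adjusted p = 0.968). The interaction was 0.68 (SE 0.262, adjusted p = 0.0561), and it was called without control 3 (0.83, adjusted p = 0.0362) or without hypoxia 1 (0.97, adjusted p = 0.00011), while leaving out both hypoxia 2 and 3 gave 0.295 (adjusted p = 0.336). THBD lies on chromosome 20 from 23045633 to 23049741, on the minus strand.

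PROCR, the endothelial protein C receptor, was at 434.9, 388.3 and 458.7 CPM in control 1 to 3 and at 480.4, 613 and 655.4 CPM in hypoxia 1 to 3. It was at 382.4, 390.6 and 386.5 CPM in TEPA 1 to 3 and at 374.2, 380.6 and 324.6 CPM in TEPA+hypoxia 1 to 3. The hypoxia libraries lay above all others, with hypoxia 1 at 112% of the control mean and hypoxia 2 and 3 at 143% and 153%. Of all genes, 55.6% had no overlap between hypoxia and control. The log2 fold change between hypoxia and control was 0.45 (SE 0.122, adjusted p = 0.0109, edgeR). The call was lost without control 2 (0.38, adjusted p = 0.0516) or hypoxia 3 (0.35, adjusted p = 0.0577), and without hypoxia 2 and 3 the value was 0.17 (adjusted p = 0.389). The correction for GC content and length turned it to -0.14 (adjusted p = 0.14).

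After TEPA, PROCR in low oxygen was no higher than at normal oxygen: TEPA+hypoxia lay wholly below TEPA, at -0.10 (SE 0.121, adjusted p = 0.853). The interaction was -0.55 (SE 0.172, adjusted p = 0.0304), and leaving out hypoxia 2 and 3 made it -0.26 (adjusted p = 0.249). It was called in 4 of the 12 fits with 1 library left out and lost, at an adjusted p of up to 0.0863, without control 1 or 2, hypoxia 2 or 3, any of the TEPA libraries, or TEPA+hypoxia 3. TEPA+hypoxia was below hypoxia, at -0.70 in log2 (SE 0.122, adjusted p = 0.00217), a call that stood without hypoxia 2 and 3 (-0.41, adjusted p = 0.0316) but not after the correction for GC content and length (-0.04). Against control, TEPA+hypoxia was wholly lower, at -0.25 (SE 0.121, adjusted p = 0.537). An overlapping antisense gene, MMP24-AS1, had 377 to 1190 counts per library, and the sources used here do not say whether the counting kept strands apart.

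The PROCR gene runs from 35172073 to 35216240 on the plus strand of chromosome 20 (GRCh38). Its promoter window is shown whole because it carries 2 GGGCGG matches, in capitals (the second read as CCGCCC), and no match to the other 3 motifs. The window is chr20:35171822-35172071 (GRCh38.p14, gene strand), 60% GC. PROCR and PLAUR, the 2 genes called higher in hypoxia, thus shared none of the 4 motifs in these windows.
PROCR: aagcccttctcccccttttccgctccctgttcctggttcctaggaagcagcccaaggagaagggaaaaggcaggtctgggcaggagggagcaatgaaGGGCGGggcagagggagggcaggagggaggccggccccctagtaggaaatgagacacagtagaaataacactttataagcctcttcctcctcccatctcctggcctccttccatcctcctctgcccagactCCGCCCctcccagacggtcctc

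**Figure D2:**
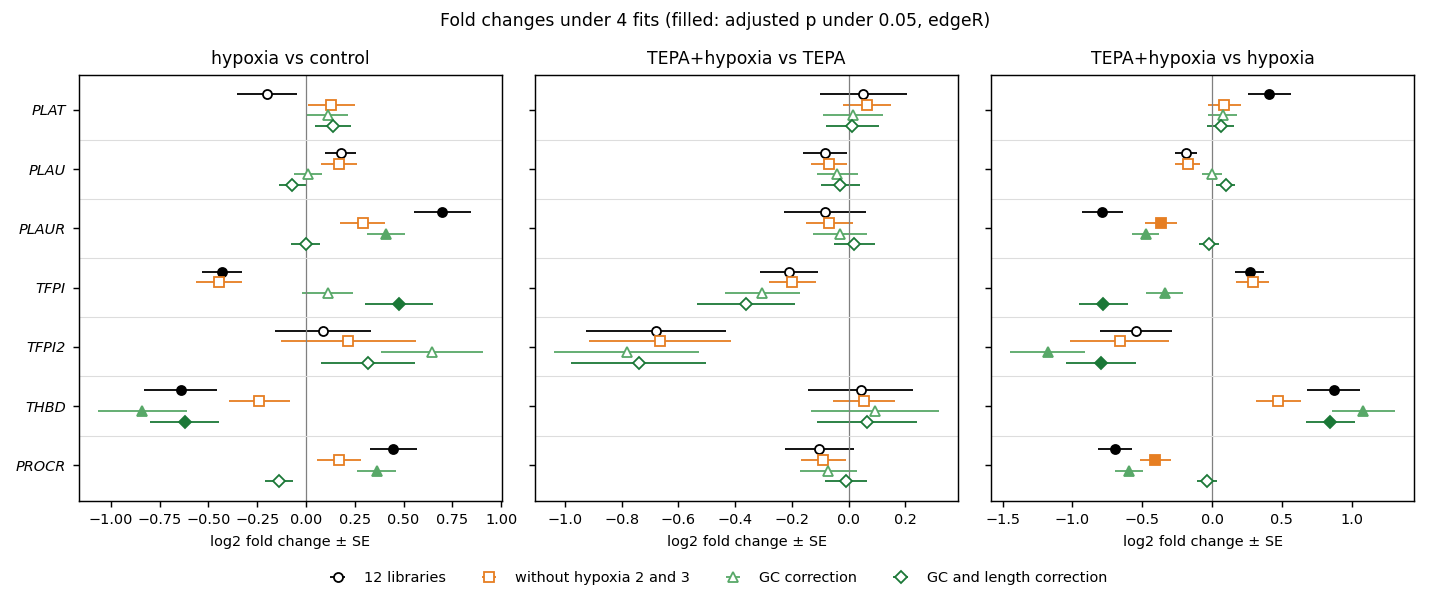
Log2 fold changes with their SE for the 7 tested genes in 3 comparisons, under 4 fits: all 12 libraries, without hypoxia 2 and 3, with GC content corrected, and with GC content and transcript length corrected; filled symbols passed an adjusted p under 0.05 in edgeR. PLAUR moves from 0.70 to -0.0017 and TFPI from -0.43 to 0.48 between the first and the last fit of hypoxia against control, while THBD is at -0.64 and -0.62 in those 2 fits.

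TEPA+hypoxia differed from hypoxia for 5 of the 7 genes in edgeR, against 61.5% of all genes: THBD, PLAT and TFPI were higher (30.9% of all genes) and PLAUR and PROCR lower (30.6%). The libraries of these groups did not overlap for any of the 7 genes, and for 62.7% of all genes. Without hypoxia 2 and 3, PLAUR and PROCR were the genes called, 2 of 8, against 15.2% of all genes. Against control, 0 of 7 differed from TEPA+hypoxia in edgeR and in DESeq2, with 0 at an unadjusted p under 0.05 in either, and 0.263% of all genes were called. PROCR and PLAT were the genes without overlap in that comparison, as were 28.6% of all genes. Between TEPA and control all 7 genes overlapped (13.6% of all genes did not), and their log2 fold changes lay between -0.14 for PROCR and 0.22 for TFPI2. The comparisons share groups, so their values for a gene are not independent of each other.

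Ratios of counts within a library do not depend on how libraries are scaled. THBD counts per PROCR count were 0.556, 0.699 and 0.406 in control 1 to 3, and for hypoxia 1 to 3 they were 0.411, 0.192 and 0.203. They were 0.761, 0.667 and 0.631 in TEPA 1 to 3 and 0.732, 0.683 and 0.879 in TEPA+hypoxia 1 to 3. Hypoxia 1 thus lay just above control 3, and hypoxia 2 and 3 below every other library. The group means were 0.554 ± 0.147 in control, 0.269 ± 0.123 in hypoxia, 0.686 ± 0.0671 in TEPA and 0.765 ± 0.102 in TEPA+hypoxia (SD, n = 3). Control 3, the control lowest in this ratio, was also the one leaning most to GC-rich genes (0.471), and control 2, the highest, leaned least (-0.424). The part of GC content in this ratio was not tested.

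The ratio of the 2 activators, PLAU counts per PLAT count, was 2.46, 2.33 and 2.77 in control 1 to 3, and for hypoxia 1 to 3 it was 2.58, 4.04 and 3.53. It was 2.11 to 2.61 in TEPA and 2.11 to 2.21 in TEPA+hypoxia, so hypoxia 2 and 3 lay above all other libraries and hypoxia 1 among them. PLAUR counts per PLAU count, the receptor against its ligand, were 0.591 to 0.66 in control, 0.681, 1.09 and 0.936 in hypoxia 1 to 3, 0.575 to 0.631 in TEPA and 0.56 to 0.637 in TEPA+hypoxia. Here hypoxia 1 too was above all libraries of the other groups. The longest transcripts of PLAU, PLAT and PLAUR have 54.0%, 45.6% and 55.7% GC. With GC content and length corrected, the difference between hypoxia and control changed sign for each of these genes. The part of GC content and length in both ratios was not tested.

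**Figure D3:**
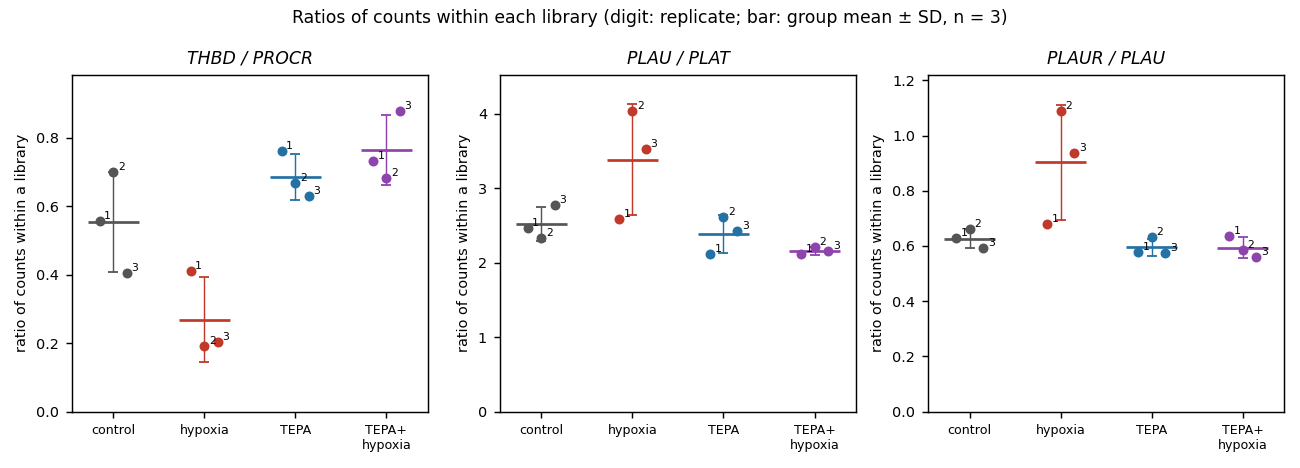
Ratios of counts of 2 genes within each library, on linear axes from 0; points are libraries with their replicate number, and the bar and whiskers give the mean and SD of 3 libraries. THBD per PROCR is lowest in hypoxia 2 and 3 (0.192 and 0.203), and PLAUR per PLAU is highest in the 3 hypoxia libraries (0.681 to 1.09).

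Around these 8 genes stood 58 others of the same systems in 3 lists: partners of plasminogen activation (16), clotting factors and their processing (25), and thrombin receptors with protein C and heparin-linked anticoagulants (17). Of the 58, 34 could be tested. The others had at most 14 counts in any library, and PLG, F7, F9, FGB, F13A1 and SERPING1 had none. Between hypoxia and control, 9 of the 34 were higher and 11 lower in edgeR, with a median log2 fold change of 0.045 against -0.01 for all genes. The 57.2% called among all genes is the background for these counts, and without hypoxia 2 and 3 there were 0 of 34 called, with 11 at an unadjusted p under 0.05.

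Of the partners of plasminogen activation, 3 of 10 tested genes were higher in hypoxia and 2 lower. S100A10, which with ANXA2 forms a receptor for plasminogen on endothelial cells, was at 280.2 ± 7.96 CPM in control and 702 ± 279 CPM in hypoxia (SD, n = 3), a difference of 1.33 in log2 (SE 0.239, adjusted p = 0.00601). Hypoxia 1 stood at 396.7 CPM, between the controls and hypoxia 2 and 3. ANXA2 was higher by 0.49 (SE 0.125, adjusted p = 0.00892), and both kept their direction and call after the correction for GC content and length. LRP1, which clears bound activators and inhibitors from the surface, was lower, with 19.3 ± 4.12 CPM in control and 6.53 ± 3.26 CPM in hypoxia (-1.55, SE 0.312, adjusted p = 0.00601), also after the correction. LRP1 was higher in TEPA+hypoxia than in hypoxia by 2.06 (SE 0.314, adjusted p = 0.00217), and this stood without hypoxia 2 and 3, at 1.43 (adjusted p = 0.0183). SERPINB2, an inhibitor of urokinase, was lower, at -1.14 in log2 (SE 0.218, adjusted p = 0.00601). These 4 differences between hypoxia and control were smaller and none was called when hypoxia 2 and 3 were left out: 0.50 for S100A10 (adjusted p = 0.0749), 0.15 for ANXA2 (adjusted p = 0.333), -0.91 for LRP1 (adjusted p = 0.116) and -0.70 for SERPINB2 (adjusted p = 0.0975).

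Of the clotting factors and their processing, 4 of 12 tested genes were higher in hypoxia and 4 lower. F12, which starts the contact pathway, was at 8.23 ± 1.36 CPM in control and 24.9 ± 13.02 CPM in hypoxia (1.60, SE 0.337, adjusted p = 0.00601), with hypoxia 1 at 11.51 CPM. VKORC1, which recycles vitamin K for clotting factors, was higher by 1.23 (SE 0.244, adjusted p = 0.00601). P4HB, the disulfide isomerase linked to tissue factor activity, was higher by 0.65 (SE 0.14, adjusted p = 0.00612), and ANO6, which moves phosphatidylserine to the cell surface, was lower, at -1.14 in log2 (SE 0.285, adjusted p = 0.00809). All 4 kept their direction under the correction for GC content and length, and P4HB lost its call (0.15, adjusted p = 0.0649). None of the 4 was called in the fit lacking hypoxia 2 and 3: F12 was at 0.48 (adjusted p = 0.223), VKORC1 at 0.42 (adjusted p = 0.147), P4HB at 0.25 (adjusted p = 0.166) and ANO6 at -0.48 (adjusted p = 0.165). LMAN1, the carrier of factors V and VIII, was higher in TEPA+hypoxia than in hypoxia by 0.96 (SE 0.213, adjusted p = 0.00342), without hypoxia 2 and 3 by 0.45 (adjusted p = 0.0465), and after the correction by 0.13 (adjusted p = 0.0924). VKORC1 was lower there, at -1.33 in log2 (SE 0.244, adjusted p = 0.00217) and without those libraries at -0.51 (adjusted p = 0.0395).

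Of the thrombin receptors and anticoagulants, 2 of 12 tested genes were higher in hypoxia and 5 lower, with a median log2 fold change of -0.32. The receptor F2R was at 150.3 ± 17.6 CPM in control and 73.8 ± 29.5 CPM in hypoxia (-1.02, SE 0.221, adjusted p = 0.0061), and F2RL2, another receptor cut by thrombin, was lower, at -0.90 in log2 (SE 0.154, adjusted p = 0.00601). KLF2, a transcription factor that raises THBD in endothelium, was higher by 0.81 (SE 0.164, adjusted p = 0.00601), while THBD itself was lower. After the correction for GC content and length KLF2 was at -0.12 (adjusted p = 0.407), and with GC content alone corrected at 0.12 (adjusted p = 0.311). None of these 3 was called when hypoxia 2 and 3 were left out, at -0.497 for F2R (adjusted p = 0.085), -0.69 for F2RL2 (adjusted p = 0.0713) and 0.33 for KLF2 (adjusted p = 0.143). In TEPA+hypoxia GAS6, a relative of protein S, was below hypoxia, at -0.93 in log2 (SE 0.165, adjusted p = 0.00217) and at -0.49 without hypoxia 2 and 3 (adjusted p = 0.0422).

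HS3ST1, the enzyme that makes the heparan sulfate bound by antithrombin, was at lower levels in low oxygen with and without TEPA. It was at 7.177, 7.03 and 8.512 CPM in control 1 to 3 and at 4.784, 2.642 and 3.828 CPM in hypoxia 1 to 3. It was at 10.11, 9.475 and 7.707 CPM in TEPA 1 to 3 and at 3.608, 4.611 and 4.244 CPM in TEPA+hypoxia 1 to 3. Every low-oxygen library lay below every library at normal oxygen. Of all genes, 55.6% had no overlap between hypoxia and control, and 30.5% had none between TEPA+hypoxia and TEPA. The share of all genes split in this way across the 4 groups was not counted. Between hypoxia and control the log2 fold change was -1.01 (SE 0.214, adjusted p = 0.00601), without hypoxia 2 and 3 it was -0.66 (adjusted p = 0.133), and after the correction for GC content and length it was -0.38 (adjusted p = 0.112). Between TEPA+hypoxia and TEPA it was -1.13 (SE 0.207, adjusted p = 0.105) in edgeR with all 12 libraries. It was called there in DESeq2 (adjusted p = 9.8e-05), without hypoxia 2 and 3 (-1.12, adjusted p = 0.0021) and with GC content and length corrected (-1.22 with adjusted p = 0.0254 or, with GC content alone, -1.14 with adjusted p = 0.0419).

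In the 3 comparisons that do not involve the hypoxia group, the lists gave 0 calls in edgeR with all 12 libraries. Between TEPA+hypoxia and TEPA 0 of 34 passed in edgeR, with 1 at an unadjusted p under 0.05, and 1 passed in DESeq2, HS3ST1. Between TEPA and control 0 of 34 passed in edgeR and in DESeq2, with 0 and 1 at an unadjusted p under 0.05. Between TEPA+hypoxia and control 0 of 34 passed in edgeR, with 5 at an unadjusted p under 0.05, and 1 passed in DESeq2, again HS3ST1. With hypoxia 2 and 3 left out, the log2 fold changes in that comparison were -0.85 for HS3ST1, -0.64 for SERPINB2 and -0.35 for F2RL1. Of these, F2RL1 was named after its value was seen. Between TEPA+hypoxia and hypoxia 8 of 34 were higher and 10 lower, against 61.5% of all genes called, and 2 and 2 without hypoxia 2 and 3, against 15.2%. The interaction was called for 7 higher and 7 lower, against 38.8% of all genes, and for 0 without those libraries, when 0% of all genes were called, with 12 at an unadjusted p under 0.05.

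**Figure D4:**
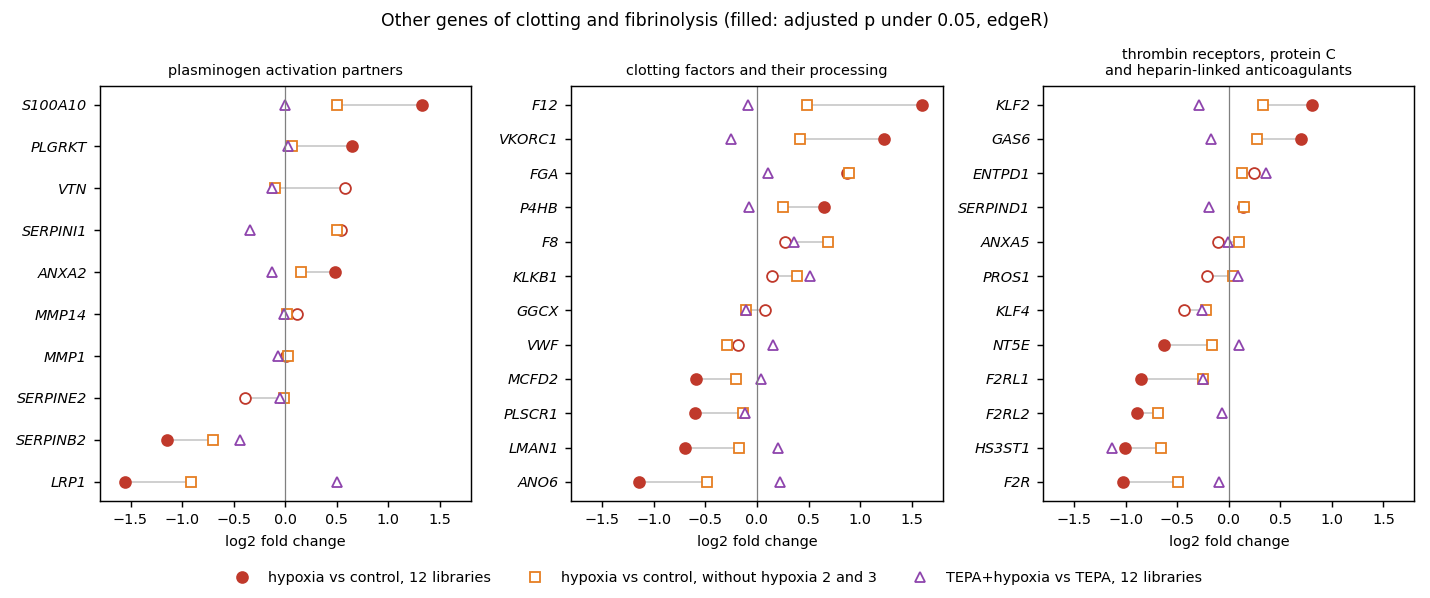
Log2 fold changes of the 34 tested genes of the 3 lists: circles give hypoxia against control in all 12 libraries, squares the same without hypoxia 2 and 3, and triangles TEPA+hypoxia against TEPA; filled symbols passed an adjusted p under 0.05 in edgeR. Of the circles, 9 are filled on the right and 11 on the left, none of the squares or triangles is filled, and HS3ST1 has the lowest triangle of its list at -1.13.

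The genes most like each member in pattern were sought by Pearson's r of log2 CPM over the 10 libraries other than hypoxia 2 and 3, among 9807 genes of at least 5 CPM (9808 for TFPI2). With so many candidates and so few libraries a high r is a description only. PLAUR was most like SMUG1 (r = 0.956, and 0.99 over all 12 libraries) and CCDC23 (0.94 and 0.986). PROCR was most like SDHAF2 (0.987 and 0.983) and FBXW9 (0.982 and 0.984), and PLAU was most like CRIP2 (0.987 and 0.768) and ARL2-SNX15 (0.984 and 0.816). THBD was most like PODXL (0.94 and 0.981), which encodes podocalyxin, a sialomucin of endothelial surfaces, and DNAJC16 (0.922 and 0.963). TFPI was most like SLC11A2 (0.961 and 0.762) and DAAM1 (0.946 and 0.931), and PLAT was most like GFPT2 (0.927 and 0.956) and STPG1 (0.888 and 0.407). TFPI2 was most like C1orf174 (0.932 and 0.86) and SRSF8 (0.918 and 0.318). Between members, THBD and PROCR ran opposite (r = -0.866 over 10 libraries, -0.958 over 12), and PLAUR and PROCR ran together (0.732 and 0.934). The libraries of a group share their treatment, and libraries differed in depth and in their lean to GC content, whose part in these values of r was not tested.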

How the data were processed

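Poly(A) RNA was extracted with TRIzol and made into libraries with a directional kit, per the labels' protocols. Reads were aligned with HISAT2 2.1.0 to GRCh38 and DESeq was used, per the submitters' processing notes. The names of the read counter and annotation and the strand setting were not given in the sources used here, so antisense reads may be included. The authors deposited raw counts per gene symbol, whole numbers with 1 column per library. Coordinates, lengths and GC content came from GENCODE 29 (GRCh38), matched directly for 30966 symbols and through another symbol for 933, and promoter windows from RefSeq (GRCh38.p14).

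Genes with low counts were removed by group (filterByExpr), leaving 14447 genes with 99.91% of counts. All 12 libraries were fitted together with edgeR 4.0.16 in R 4.3.3 (TMM scaling, quasi-likelihood F-test, two-sided, 1 mean per group, common dispersion 0.0339). Calls were made at p under 0.05 after Benjamini-Hochberg adjustment over all genes. The labels do not say that replicates were separate cultures, so p-values measure only the spread between these libraries.

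Alternatives were RLE size factors, no filter, DESeq2 1.42.0, a replicate block, fits of only the groups compared, each library left out in turn, hypoxia 2 and 3 left out together, and a correction for GC content and length of transcripts (per-library splines, 4 degrees of freedom, 13014 genes, 90.1% of those tested), alone and with the block. That correction without hypoxia 2 and 3, and a correction for GC content alone, were added after seeing the data. The genes named were the 8 members, up to 4 genes of each list with the smallest p in each comparison, and the 2 genes most like each tested member. A gene of the lists is not reported here. The members and lists were chosen with earlier results of these data known. The scripts were tested on simulated data. Floors cover counting error only.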

Additional observations from a re-analysis of the deposited data

Results flagged for a closer look

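The interaction was called for PLAUR and PROCR, 2 of 7 genes, against 38.8% of all genes, and both were lower (21.5% of all genes). Libraries of hypoxia and control did not overlap for 55.6% of all genes, and those of TEPA+hypoxia and TEPA for 30.5%. The response of PLAUR to low oxygen differed with and without TEPA: the interaction was -0.78 on the log2 scale (SE 0.204, adjusted p = 0.0236, edgeR). PLAUR in hypoxia lay above control in 3 of 3 libraries, while TEPA+hypoxia overlapped TEPA. The response of PROCR differed likewise, at -0.55 (SE 0.172, adjusted p = 0.0304), with hypoxia above control in 3 of 3 libraries and TEPA+hypoxia below TEPA in 3 of 3. Without hypoxia 2 and 3 these became -0.36 (adjusted p = 0.13) and -0.26 (adjusted p = 0.249), and after the correction for GC content and length 0.02 and 0.13.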

How the results depend on the processing

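Most calls with the hypoxia group were lost without hypoxia 2 and 3, and most were lost or reversed with GC content and length corrected. Leaving out those 2 libraries leaves 1 in the group, so a lost call does not by itself show a dependence on them. Without them the log2 fold change between hypoxia and control was -0.45 for TFPI, about as large as with them. For PLAUR, PROCR and THBD it was smaller than with them. The cause was not tested. Between hypoxia and control 4 genes were called, against 0 when only those groups were fitted, 0 without hypoxia 2 and 3, 2 with GC content and length corrected (THBD as before, and TFPI with its direction reversed), 1 with the replicate block added to that correction (THBD), 0 with that correction without hypoxia 2 and 3, and 2 to 5 with 1 library left out. Between TEPA+hypoxia and hypoxia 5 were called, and the numbers were 3, 2, 3, 3 and 0 in the same order, and 3 to 5. The 3 called under the correction, with and without the block, were THBD as before, TFPI reversed and TFPI2, which was not among the 5. The interaction called 2 (PLAUR and PROCR), against 2 others with GC content and length corrected (TFPI and TFPI2), 4 in DESeq2, 1 with the replicate block, 0 without hypoxia 2 and 3, 0 with the correction and the block, 0 with the correction without hypoxia 2 and 3, 4 with GC content alone corrected, and 0 to 4 with 1 library left out. With the correction and without hypoxia 2 and 3, 2 genes were called between TEPA+hypoxia and control and 1 between TEPA+hypoxia and TEPA, where other fits, among them each with 1 library left out, called 0.

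With GC content and length corrected the log2 fold change changed sign between hypoxia and control for PLAT (0.14), PLAU (-0.070), PLAUR (-0.0017), PROCR (-0.14) and TFPI (0.48). It did so for the interaction of PLAT (-0.12), PLAU (0.041), PLAUR (0.023), PROCR (0.13) and TFPI (-0.84), between TEPA+hypoxia and hypoxia for PLAU (0.098) and TFPI (-0.78), between TEPA+hypoxia and control for PLAU (0.0282) and between TEPA+hypoxia and TEPA for PLAUR (0.0210). With the replicate block added to that correction, 13 of these 14 also had a changed sign (PLAUR in hypoxia did not): PLAT at 0.13 in hypoxia and -0.12 in the interaction, PLAU at -0.072, 0.043, 0.10 and 0.02824 in the order above, PLAUR at 0.0213 in the interaction and 0.0215 against TEPA, PROCR at -0.14 and 0.13, and TFPI at 0.45, -0.81 and -0.76. With the correction and without hypoxia 2 and 3, values of changed sign were PLAT 0.22 (hypoxia), -0.21 (interaction) and -0.027 (TEPA+hypoxia against hypoxia), PLAU 0.024 (TEPA+hypoxia against control), PLAUR 0.0124 (TEPA+hypoxia against TEPA), PROCR -0.030 (hypoxia) and 0.0121 (interaction), and TFPI -0.27 (interaction) and -0.21 (TEPA+hypoxia against hypoxia). With GC content alone corrected they were PLAT 0.11 (hypoxia) and -0.094 (interaction), PLAU 0.0073 (TEPA+hypoxia against control), and TFPI 0.11 (hypoxia), -0.41 (interaction) and -0.34 (TEPA+hypoxia against hypoxia). Without hypoxia 2 and 3 they were PLAT 0.13 (hypoxia) and -0.065 (interaction). With 1 library left out, changed signs came from values near 0: PLAT (-0.0078 to 0.15) and THBD (-0.015 to 0.11) between TEPA+hypoxia and TEPA, PLAU (-0.037 to 0.021) between TEPA+hypoxia and control, PLAUR (-0.057 to 0.036) and TFPI (-0.0089 to 0.079) between TEPA and control, and TFPI2 (-0.087 to 0.22) between hypoxia and control.

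Over all genes, 8270 were called between hypoxia and control, 8887 between TEPA+hypoxia and hypoxia, 5611 for the interaction, 38 between TEPA+hypoxia and control, 14 between TEPA+hypoxia and TEPA and 0 between TEPA and control. In that order the numbers were 78, 2303, 0, 763, 329 and 4 without hypoxia 2 and 3, and 242, 1705, 192, 1980, 983 and 12 with the correction as well. DESeq2 gave 303, 145 and 6 for the last 3, and fits of only the groups compared gave 0 for the first, 5199 for the second and 251, 355 and 7 for the last 3. With GC content and length corrected the interaction called 2942, and TEPA+hypoxia against control and against TEPA 133 and 28. With the block as well the interaction called 1554 and TEPA+hypoxia against TEPA 7. GC content alone gave 75 for TEPA+hypoxia against control. The correction moved the split of higher and lower calls from 4467 and 4420 to 2557 and 4076 between TEPA+hypoxia and hypoxia, and from 2498 and 3113 to 728 and 2214 for the interaction. Leaving out 1 library gave 5114 to 10623, 6744 to 10865, 0 to 9758, 3 to 666, 0 to 254 and 0 to 5.

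Replicate numbers showed no clear pairing of the libraries: 4 of 18 same-numbered pairs had a correlation of deviations over 0.1 (range -0.327 to 0.26). A pair with different numbers, hypoxia 1 and TEPA+hypoxia 3, reached 0.446. Deviations from a mean of 3 libraries offset each other, so this check cannot exclude shared cultures or batches. The replicate block gave 18 genes between TEPA+hypoxia and control and 9 between TEPA+hypoxia and TEPA, and it ended the calls of PROCR in the interaction (-0.54) and of TFPI between TEPA+hypoxia and hypoxia (0.27). Low counts limited F3 and TFPI2 alone among the 8 genes, at 1 to 15 and 25 to 70 counts per library. The cause of the low counts was not tested.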
